A study of Sus scrofa with 2 samples.

Results

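RAB GTPases and the TBC domain genes that switch them off were described across 2 lists of ZBTB16 CUT&Tag peaks. The members were the protein-coding genes named RAB plus a digit, TBC1D plus a digit, or EVI5. There were 99 such genes of 16509 protein-coding genes with a symbol. They were 59 RAB GTPases, 31 TBC genes, and 9 further genes that carry a RAB name but encode partners of RAB proteins. The 2 libraries form 1 group, replicate 1 and replicate 2, each from 100000 immature spermatogonia taken from testes of wild-type pigs. CUT&Tag directs a transposase to chromatin through an antibody, here against ZBTB16, a transcription factor with zinc fingers that marks undifferentiated spermatogonia. The labels give neither the age of the animals nor whether the libraries came from separate animals, so the spread between them may be technical. A control library made with secondary antibody alone, which the protocols mention, was not used here.

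RAB proteins are small GTPases that mark membranes. Bound to GTP, each recruits effectors that move, tether or fuse vesicles. Exchange factors load GTP, and proteins with a TBC domain stimulate its hydrolysis and so end the active state. In the testis, membrane traffic of this kind serves receptor turnover in germ cells and, later, acrosome formation.

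A gene was called bound when the authors had assigned it a promoter peak in both lists. Of the TBC genes, 15 of 31 were bound (48.4%, Wilson 95% interval 32.0 to 65.2). Of the RAB GTPases, 17 of 59 were bound (28.8%, 18.8 to 41.4). Of the RAB-named partners, 5 of 9 were bound (55.6%, 26.7 to 81.1). The background over all genes was 20.8% (3439 of 16509). The members were chosen by name after their promoter peaks in these same lists were known, and TBC genes were selected on their high share, so the shares are a description and were not tested. Wilson intervals here treat genes as independent draws, and the intervals given below for fragments cover counting error only. Neither covers the spread between the libraries.

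The difference between TBC genes and GTPases varied with the rule by which genes were counted. Each peak was given to 1 gene only. When any peak within 1 kb of either end of a gene counted, whatever gene it had been assigned to, the shares were 45.2% of TBC genes (14 of 31), 44.1% of GTPases (26 of 59) and 29.0% of all genes. It was then 1.1 percentage points, against 19.6 by assigned promoter peaks. It was 6.9 points when peaks below the median fold of their own list were left out (32.3% against 25.4%). With assigned peaks of any class, the shares were 48.4% and 37.3%. Peaks overlapping by 50% of both gave 11.6 points (38.7% against 27.1%).

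**Figure D1:**
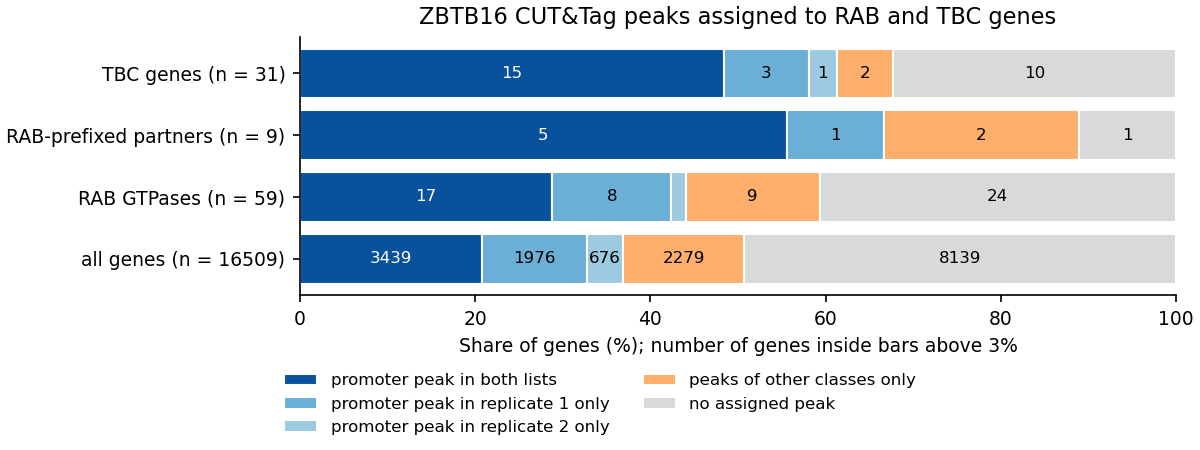
Share of genes (x axis, percent) by the class of peak assigned to them, for TBC genes, RAB-named partners, RAB GTPases and all genes, with gene numbers inside the bars. A promoter peak in both lists was found for 15 of 31 TBC genes, 17 of 59 GTPases and 3439 of 16509 genes, while 10 TBC genes and 24 GTPases had no assigned peak.

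Among the bound TBC genes, EVI5L had the strongest peak of all members. EVI5L and its paralogue EVI5, a RAB GTPase-activating protein with roles in the cell cycle, were both bound. The EVI5L peak lay on chromosome 2, from 71365889 to 71366640 in replicate 1 and from 71365872 to 71366665 in replicate 2 (build Sscrofa11.1). Its fold enrichment, the authors' ratio of signal to local background at the summit, was 10.9 in replicate 1 and 10.3 in replicate 2. It rested on 80 fragments at the summit (exact Poisson 95% interval 63.4 to 99.6) and 62 (47.5 to 79.5). EVI5L stood at the 99.6th and 99.7th percentile of fold in its lists. EVI5, on chromosome 4 (124404108 to 124404557 in replicate 1), reached 6.32-fold and 6.15-fold with 24 and 19 fragments.

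Among the bound TBC genes, 6 are known to act on RAB35 or RAB7A, from a list of TBC and GTPase pairs written after the values were seen. TBC1D10B, of a small family of RAB35 regulators, had 7.98-fold and 6.32-fold enrichment with 43 and 31 fragments (chromosome 3, 17944015 to 17944601 in replicate 1). Its relative TBC1D10A was weaker, at 4.75-fold and 4.29-fold with 17 and 16 fragments. TBC1D13, also reported to act on RAB35, had 6.29-fold and 5.196-fold with 16 and 11 fragments. For RAB7A, the GTPase of late endosomes, TBC1D2 had 6.27-fold and 7.82-fold with 27 and 29 fragments. TBC1D5, which works with the retromer coat, had 7.05-fold and 5.28-fold with 26 and 13 fragments. TBC1D15, which also acts at mitochondria, had 6.38-fold and 5.39-fold with 19 and 16 fragments. Within these 6 genes, TBC1D10B and TBC1D2 had the most fragments in both libraries.

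The other bound TBC genes act at cilia, autophagosomes, the Golgi or insulin-responsive vesicles, or have less settled roles. TBC1D32, a gene of cilium formation, had 6.53-fold and 6.77-fold enrichment with 20 and 15 fragments. TBC1D25, an autophagosomal regulator of RAB33B, had 6.05-fold and 5.06-fold with 16 and 12 fragments (chromosome X, 42681983 to 42682648 in replicate 1). TBC1D23, a catalytically inactive tether at the trans-Golgi, had 5.04-fold and 4.81-fold with 19 and 13 fragments. TBC1D4, the regulator of RAB10 on vesicles that carry the glucose transporter GLUT4, had 3.75-fold and 4.60-fold with 12 and 14 fragments. It was the weakest bound member in replicate 1. TBC1D12 had 7.03-fold and 4.83-fold with 28 and 13 fragments. The paralogues TBC1D9 and TBC1D8 had 5.93-fold and 5.01-fold (21 and 15 fragments) and 4.51-fold and 4.76-fold (15 and 12 fragments). These 7 peaks all rested on under 30 fragments in each library, where the 95% counting interval is wide (for TBC1D4, 6.20 to 21.0 fragments in replicate 1).

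Bound GTPases were spread over the secretory and endocytic routes. RAB28, a GTPase of cilia and photoreceptors, had the highest fold in replicate 1 among bound GTPases, with 9.01-fold there and 8.80-fold in replicate 2 (38 and 27 fragments, chromosome 8, 9125227 to 9125829 in replicate 1). RAB8A, which directs exocytic vesicles to the plasma membrane and cilium, had 8.06-fold and 8.69-fold with 42 and 41 fragments (chromosome 2, 61450158 to 61450959). RAB10, a close relative of RAB8A in exocytosis, had 6.93-fold and 5.99-fold with 37 and 21 fragments. They were the 3 bound genes among 8 in the list of exocytic and ciliary GTPases (37.5%, 13.7 to 69.4).

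All 3 RAB5 paralogues, which drive fusion of early endosomes, were bound. RAB5B had 7.74-fold and 6.30-fold with 53 and 31 fragments, RAB5C 6.14-fold and 6.81-fold with 26 and 23, and RAB5A 5.66-fold and 7.03-fold with 25 and 25. With RAB21, an endosomal GTPase of integrin traffic (4.60-fold and 5.81-fold, 16 and 17 fragments), 4 of 9 early endosomal GTPases were bound. Their share was 44.4% (18.9 to 73.3). In the recycling list, 2 of 7 were bound (28.6%, 8.22 to 64.1), while 5 of 7 had a promoter peak in replicate 1. RAB4B, of rapid recycling, had the highest fold of any GTPase in replicate 2, with 8.05-fold and 9.68-fold (60 and 59 fragments, chromosome 6, 48988575 to 48989739 in replicate 1). RAB35 had 5.63-fold and 5.29-fold with 26 and 20 fragments.

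Of the 16 GTPases listed for the endoplasmic reticulum and Golgi, 4 were bound (25.0%, 10.2 to 49.5). RAB6A, of retrograde Golgi traffic, had 7.16-fold and 7.85-fold with 38 and 32 fragments. RAB43 had 7.97-fold and 6.47-fold with 55 and 33 fragments. RAB1A, of traffic from the endoplasmic reticulum to the Golgi, had 7.16-fold and 5.29-fold with 37 and 20 fragments. RAB2B, of the same route, had 6.26-fold and 6.06-fold with 22 fragments in each library.

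The late endosomal and secretory lists held 1 bound gene each, or 14.3% (2.57 to 51.3) and 12.5% (2.24 to 47.1). Both intervals include the 20.8% of all genes. RAB3A, of regulated exocytosis, was the bound gene of 8 in its list (6.57-fold and 6.84-fold, 38 and 33 fragments). RAB7A was the bound gene of 7 late endosomal and lysosomal GTPases. Its strongest promoter peaks, 5.64-fold and 5.58-fold with 20 and 17 fragments, lay at different starts of the gene in the libraries. In replicate 1 it was at 71886226 to 71887005 of chromosome 13, and in replicate 2 at 71852185 to 71852729. A weaker replicate 1 promoter peak of 4.77-fold overlapped the replicate 2 peak, so the site found in both libraries lay inside the gene. Both RAB40 genes, whose SOCS box recruits a ubiquitin ligase, were bound, RAB40C at 6.66-fold and 7.33-fold (43 and 40 fragments) and RAB40B at 7.12-fold and 4.40-fold (30 and 16).

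Among the RAB-named partners, 4 bound genes encode RAB11 effectors. RAB11FIP2 had 6.81-fold and 6.10-fold enrichment with 24 and 19 fragments. RAB11FIP5 had 6.93-fold and 5.17-fold with 32 and 17 fragments, RAB11FIP4 had 4.65-fold and 5.57-fold with 17 and 18, and RAB11FIP1 had 4.23-fold and 5.47-fold with 11 and 15. The other was RAB3IP, the exchange factor for RAB8 also called Rabin8, with 5.51-fold and 5.99-fold (17 and 13 fragments). RAB3IP and RAB8A, an exchange factor and its GTPase, were thus both bound.

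By assigned promoter peaks, TBC genes had the higher share bound, on which they were selected. The promoter peaks of bound GTPases had higher medians. The median fold of the 15 bound TBC genes was 6.29 in replicate 1 and 5.196 in replicate 2, and that of the 17 bound GTPases 6.93 and 6.47. The medians over all 3439 bound genes were 5.85 and 5.45. Median summit fragments were 20 and 15 for TBC genes, 37 and 25 for GTPases, and 22 and 17 for all bound genes. The local background at the summits was also higher for GTPases, with medians of 4.31 and 2.97 fragments against 2.79 and 2.15 for TBC genes. Their peaks were wider, with medians of 780 and 680 bp against 555 and 501 bp. Over all bound genes the median widths were 662 and 550 bp. The ranges of the families overlapped on each measure, and these medians were not tested.

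**Figure D2:**
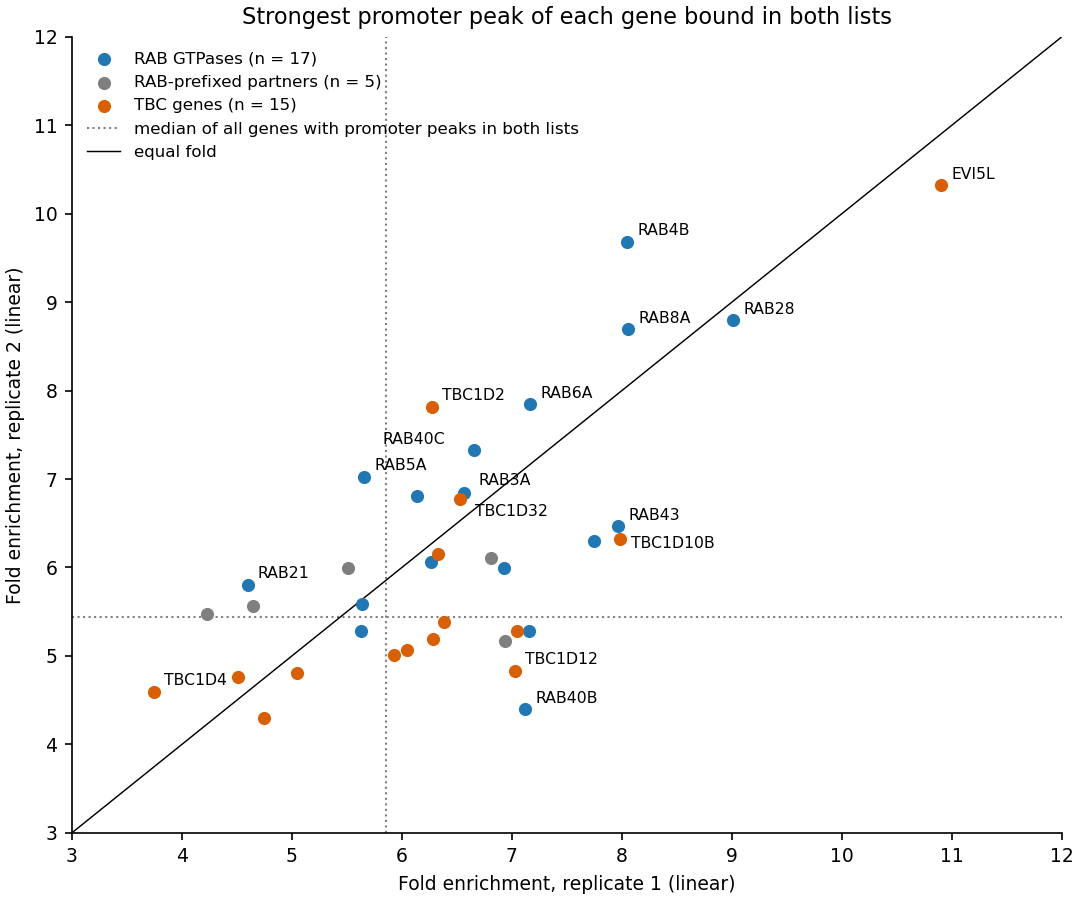
Fold enrichment of the strongest promoter peak in replicate 1 (x axis) and replicate 2 (y axis), both linear, for the 37 bound members. Each point is a gene, the solid line marks equal fold and the dotted lines the medians of all bound genes (5.85 and 5.45). EVI5L stands apart at 10.9 and 10.3, and the median replicate 2 fold is 5.196 for TBC genes and 6.47 for GTPases.

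**Figure D3:**
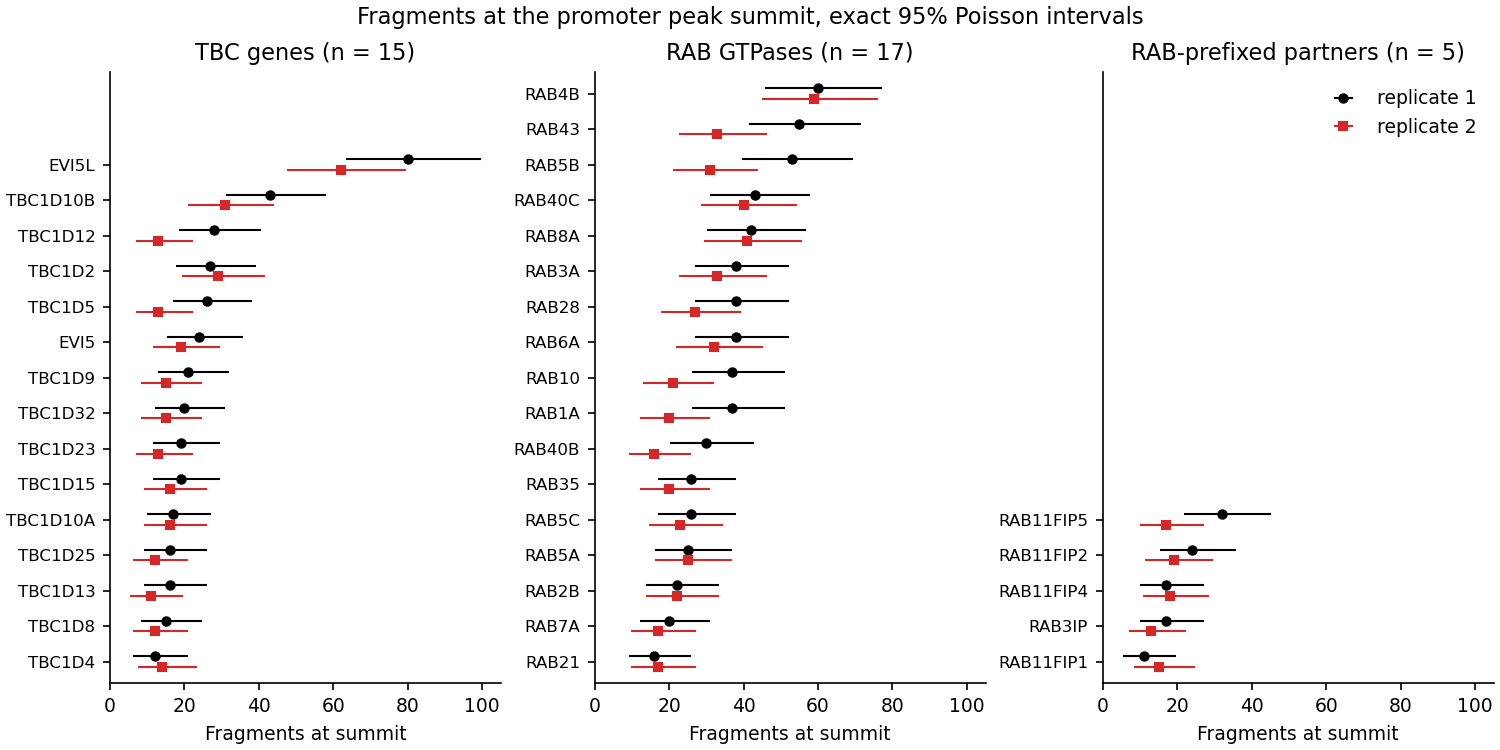
Fragments at the summit of each bound promoter (x axis) in replicate 1 (circles) and replicate 2 (squares), with exact 95% Poisson intervals, for TBC genes, RAB GTPases and RAB-named partners. The intervals of the 2 libraries overlap for every gene shown, and 80 and 62 fragments at EVI5L are the most.

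Among peaks that overlapped between the lists, no difference in how fragments were divided over the libraries was detectable at this depth. For every overlapping pair of peaks, the division of summit fragments over both libraries was compared with the ratio over all pairs, 1.301 fragments in replicate 1 per fragment in replicate 2. By an exact two-sided binomial test with Benjamini-Hochberg adjustment over 5460 pairs, 0 pairs passed an adjusted p of 0.05 (0%), and 57 had an unadjusted p under 0.05 (1.04%). Of 45 member pairs, 0 passed and 0 had an unadjusted p under 0.05. The ratio over member pairs ran from 0.733 at RAB11FIP1 to 2.15 at TBC1D12, with a median of 1.26. The lowest member p was 0.0983 (adjusted p = 1, exact binomial test), at RAB11A. The test compares the 2 libraries, not conditions, and most members give it few fragments. Peaks called in a single list, such as those of RAB1B and RAB11FIP3, could not enter it. Its result therefore does not show that the libraries agree.

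Summits lay close to the transcription start sites the authors had assigned, which follows in part from the definition of bound. The promoter class held only peaks at −2995 to 0 bp (replicate 1) and −2910 to 0 bp (replicate 2) from a start. A peak wholly downstream of its start fell in another class. The counts below are therefore a description. In replicate 1 and replicate 2, 12 and 13 of 17 bound GTPases had their summit within 200 bp of the start, against 8 and 9 of 15 TBC genes. The share over all bound genes was 63.7% and 64.0%. The GTPase peaks spanned the start at 16 and 17 of 17 genes. TBC peaks did so at 10 and 12 of 15 genes (66.7% and 80.0%), and all bound genes at 86.9% and 84.2%. TBC1D10B had its summit 602 bp upstream in replicate 1 and 601 bp upstream in replicate 2, so the position repeated to 1 bp away from the start. RAB6A (34 bp downstream), RAB10 (155 bp upstream), RAB43 (99 bp upstream), RAB5A (65 bp upstream), RAB1A (375 bp upstream) and TBC1D15 (106 bp upstream) had their summit at the same base in both libraries. At 36 of 37 bound members the strongest promoter peaks of the libraries overlapped, and their summits lay 0 to 254 bp apart with a median of 29.5 bp. The summits were within 10 bp of each other at 9 of 16 such GTPases, at 5 of 15 TBC genes and at 0 of 5 partners. TBC1D12, TBC1D8, RAB2B, RAB3IP and RAB7A were assigned to different starts in the libraries. The TBC1D12 summits, listed 604 and 21 bp downstream of their starts, were thus 123 bp apart.

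**Figure D4:**
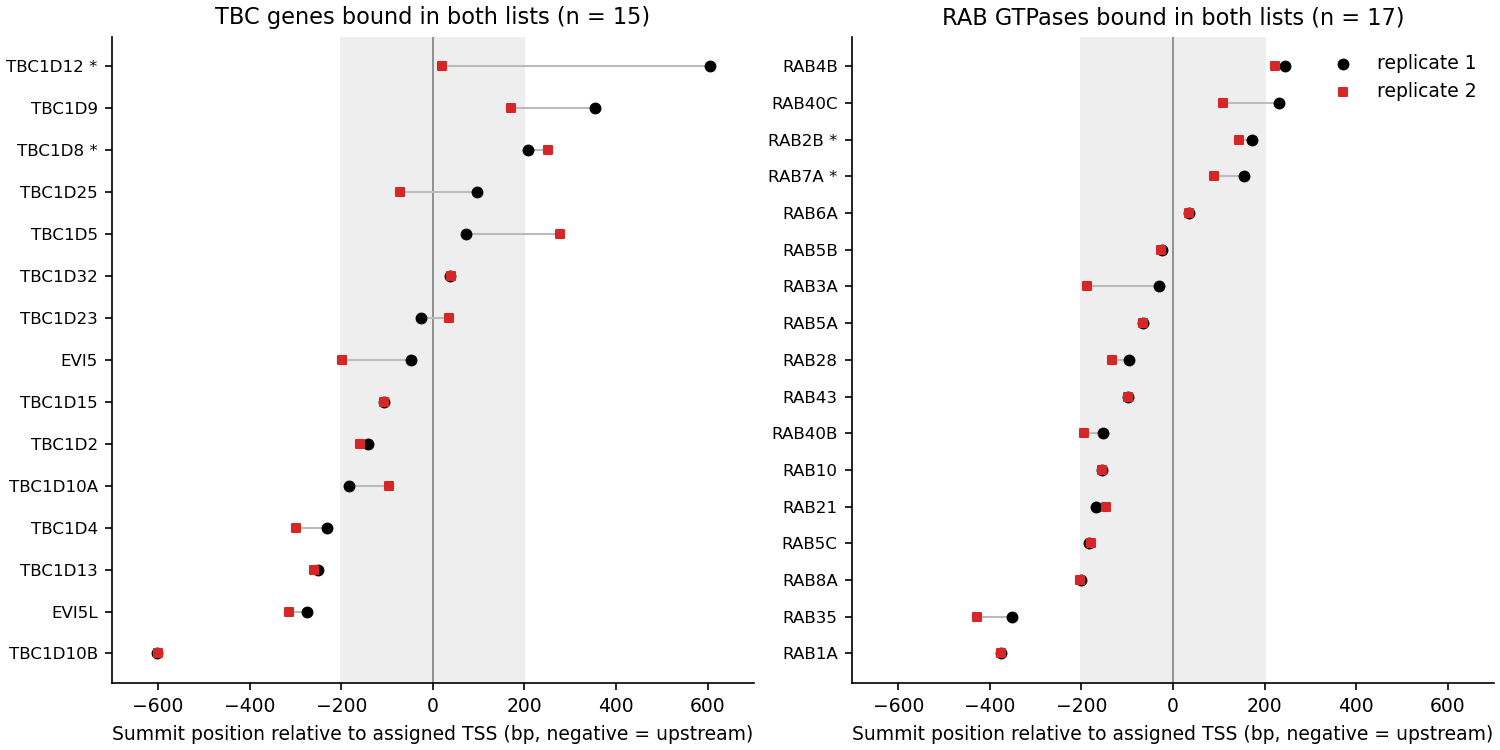
Position of the peak summit relative to the assigned transcription start (x axis, bp, negative is upstream) in replicate 1 (circles) and replicate 2 (squares) for bound TBC genes and bound RAB GTPases, with a grey band 200 bp to either side. An asterisk marks genes whose peaks were assigned to different starts in the libraries, so their points cannot be set against each other. The summits of TBC1D10B repeat at 602 and 601 bp upstream.

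Few bound members had an end of another gene near their promoter peak. Another gene's end in the RefSeq table lay within 1 kb of the replicate 1 promoter peak at 2 of 37 bound members (5.41%, 1.50 to 17.7), against 926 of 3439 bound genes (26.9%). The 2 were RAB2B, beside TOX4, and RAB5B, beside CDK2. At none of the 15 bound TBC genes was there such a neighbour. The gene table gives no strand, so the end counted can be a 3′ end and need not be a shared promoter. Members whose nearby peak was assigned to a neighbour, such as RAB30, were not bound by definition and are outside this count. Some members lie near each other. RAB21 and TBC1D15, both bound, are 38.6 kb apart on chromosome 5, and RAB43 and RAB7A, both bound, are 181 kb apart on chromosome 13.

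A promoter peak in 1 list only was assigned to 9 GTPases, 4 TBC genes and 1 partner. Over all genes, 32.8% had a promoter peak in replicate 1 and 24.9% in replicate 2, the shorter list. RAB11A, the main GTPase of recycling endosomes, had 9.27-fold enrichment and 36 fragments in replicate 1, above all bound GTPases in fold. In replicate 2 an overlapping peak of 5.94-fold and 17 fragments was assigned to the transfer RNA gene TRNAQ-CUG instead. RAB24, linked to autophagy, had 4.18-fold in replicate 1 (14 fragments), and the replicate 2 peak there, 5.11-fold (17 fragments), was assigned to PRELID1. RAB11B (5.01-fold, 38 fragments) and RAB14 (4.15-fold, 12 fragments) had a promoter peak in replicate 1. Their overlapping replicate 2 peaks were classed as 5′ UTR (5.52-fold with 31 fragments and 6.13-fold with 14). For these 4 GTPases the peaks of the libraries overlapped, and the class or the assigned gene differed.

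The other promoter peaks of a single list had no overlapping peak in the other library. In replicate 1 these were RAB3B (5.80-fold, 15 fragments), RAB29 (5.53-fold, 13), RAB27A (3.76-fold, 8), RAB1B (3.69-fold, 24), TBC1D22B (5.08-fold, 13), TBC1D31 (4.45-fold, 13), TBC1D22A (3.998-fold, 14) and RAB11FIP3 (5.63-fold, 19). In replicate 2 they were TBC1D9B (6.36-fold, 15 fragments) and RAB8B (5.12-fold, 13). The deposited lists end at a −log10 q of 1.31, and nearest to that limit among promoter peaks of members were RAB27A (2.00, replicate 1 only) and TBC1D4 (2.73 in replicate 1, 4.25 in replicate 2). Next came RAB11FIP1 among bound genes (3.201 in replicate 1) and RAB14 among single-list genes (3.31, replicate 1 only). The bound and the single-list members thus overlapped in strength.

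No assigned peak in either list was found for 24 of 59 GTPases (40.7%), 10 of 31 TBC genes (32.3%) and 1 of 9 partners, against 49.3% of all genes. An assigned peak of any class in either list was thus present for 64 of the 99 members, against 50.7% of all genes. The GTPases were RAB17, RAB18, RAB19, RAB20, RAB22A, RAB23, RAB25, RAB26, RAB30, RAB31, RAB32, RAB33A, RAB33B, RAB34, RAB39A, RAB39B, RAB3D, RAB42, RAB44, RAB4A, RAB6B, RAB7B, RAB9A and RAB9B. The TBC genes were TBC1D10C, TBC1D14, TBC1D16, TBC1D17, TBC1D19, TBC1D21, TBC1D24, TBC1D2B, TBC1D30 and TBC1D8B, and the partner was RAB3IL1.

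Several of these genes had a peak at an end that was assigned to a neighbour in both lists. At RAB30, a Golgi GTPase, a peak covering a gene end was assigned to LOC110255408 and had 6.66-fold and 7.29-fold enrichment with 29 and 22 fragments. At RAB18, of the endoplasmic reticulum and lipid droplets, a peak assigned to LOC102165822 had 5.06-fold and 4.31-fold with 12 and 10 fragments. At RAB4A, the paralogue of RAB4B, a peak assigned to LOC102163174 had 4.16-fold and 5.12-fold with 14 and 12 fragments. Peaks within 1 kb of an end were also assigned to LOC102162389 beside RAB33B (5.48-fold and 4.88-fold), to RPL23A beside RAB34 (4.73-fold and 5.04-fold) and to AKT1S1 beside TBC1D17 (5.62-fold and 3.87-fold). RAB37 had such a peak too, assigned to SLC9A3R1 (5.27-fold and 4.97-fold). It lay at the 3′ end of RAB37, whose own replicate 2 peak was assigned to a start at 6535665, the other end. With RAB11A, RAB11B, RAB14 and RAB24, these made 10 GTPases and 1 TBC gene that the rule on gene ends gained. It lost RAB7A, EVI5, TBC1D12 and RAB11FIP4, whose promoter peaks did not come within 1 kb of a gene end in both lists. For RAB30, RAB18, RAB4A, RAB33B, RAB34 and TBC1D17 the gene table gives no strand, so the end can be the 3′ end. Of the 42 GTPases that were not bound, 20 had no peak within 1 kb of either end in either list.

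Members with peaks of other classes only numbered 9 GTPases, 2 TBC genes and 2 partners. RAB27B, of regulated secretion, had a 5′ UTR peak in both lists (4.64-fold and 6.29-fold, 12 and 13 fragments). RAB2A, the paralogue of RAB2B, had an intergenic peak about 23 kb upstream in both lists, on chromosome 4 at 72905169 to 72905541 in replicate 1 (6.26-fold and 4.49-fold, 14 and 9 fragments). It also had a 5′ UTR peak in replicate 1 (4.33-fold). RAB38, of melanosomes and lysosome-related organelles, had an intergenic peak with its summit 43646 bp and 43672 bp upstream (5.22-fold and 4.49-fold, 12 and 9 fragments). In a single list, peaks fell in an exon of RAB12 (5.05-fold), an exon of RAB13 (3.99-fold), an intron of RAB15 (5.12-fold) and the 5′ UTRs of RAB36 (4.28-fold) and RAB3C (4.21-fold), all in replicate 1. Replicate 2 alone had peaks in the 5′ UTR of RAB37 (4.04-fold), an exon of RAB3GAP1 (4.55-fold), introns assigned to TBC1D1 (4.04-fold) and TBC1D20 (6.57-fold), and upstream of RAB3GAP2 (3.54-fold).

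Some bound members had further peaks away from the promoter. RAB35 had an intronic peak with its summit 23697 and 23468 bp downstream of its start in both lists (4.63-fold and 5.17-fold, 17 and 16 fragments). TBC1D4 had an exonic peak (4.27-fold) and an intergenic peak (4.15-fold) in replicate 1 only. RAB11FIP5 had an intergenic peak of 4.83-fold in replicate 1.

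Paralogues were compared by status. Over all members 37.4% were bound (37 of 99), and whether mixed groups were more frequent than this share gives was not tested. Of 23 paralogue groups among the members, all genes were bound in 3 (RAB5, RAB40 and EVI5), some in 12 and none in 8. In the GTPase groups with mixed status, RAB1A, RAB2B, RAB3A, RAB4B, RAB6A, RAB7A and RAB8A were bound, and RAB1B, RAB2A, RAB3B, RAB3C, RAB3D, RAB4A, RAB6B, RAB7B and RAB8B were not. Among TBC groups, TBC1D4 was bound and TBC1D1 was not, TBC1D12 was and TBC1D14 was not, and TBC1D2 was and TBC1D2B was not. TBC1D10A and TBC1D10B were bound and TBC1D10C was not, and TBC1D8 and TBC1D9 were bound while TBC1D8B and TBC1D9B were not. The groups with none bound were RAB11 with RAB25, RAB22 with RAB31, RAB27, RAB32 with RAB38 and RAB29, RAB33, RAB39, RAB9 and TBC1D22. RAB11A, RAB11B, RAB33B and RAB4A were not bound by assignment, yet had a peak within 1 kb of a gene end in both libraries. RAB27B had a 5′ UTR peak in both. In the groups of mixed status, RAB1B, RAB3B, RAB8B and TBC1D9B had a promoter peak in a single list.

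GTPases and the TBC proteins that act on them were compared in 16 pairs, written from general knowledge after the values were seen. Both genes were bound in 7 pairs, the TBC gene alone in 2, the GTPase alone in 4 and neither in 3. Over all members of each class, 48.4% of TBC genes and 28.8% of GTPases were bound. The list is not complete and genes recur in it, so the pairs are not independent and their counts were not tested. The 7 pairs shared 3 GTPases: RAB35 with TBC1D10A, TBC1D10B and TBC1D13, RAB7A with TBC1D2, TBC1D5 and TBC1D15, and RAB10 with TBC1D4. TBC1D20, the regulator of RAB1, had no promoter peak while RAB1A was bound. EVI5 was bound while RAB11A met the definition in replicate 1 only, and TBC1D25 was bound while RAB33B was not.

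Further lists of RAB machinery were described by the same counts, and differences between lists were not tested. The list of exchange factors also holds the partners RAB3IP and RAB3IL1. RAB exchange factors were bound at 11 of 34 genes (32.4%), led by MADD, an exchange factor for RAB3 and RAB27 (8.67-fold and 8.72-fold), MON1B, for RAB7 (8.68-fold and 7.95-fold), and ANKRD27, for RAB21 and its relatives (7.58-fold and 6.82-fold). RAB effectors were bound at 15 of 42 genes (35.7%), led by RABEP2 (9.10-fold and 9.13-fold), RILPL2 (7.80-fold and 7.62-fold) and EEA1, the tether of early endosomes recruited by RAB5 (8.40-fold and 6.66-fold). Prenylation and GDI factors, which attach RAB proteins to membranes and extract them, were bound at 3 of 9 genes (33.3%), with CHML at 7.99-fold and 6.76-fold. TRAPP subunits, which form exchange complexes for RAB1 and RAB11, were bound at 2 of 14 (14.3%). TBC genes with other names were bound at 2 of 8, RABGAP1L (6.29-fold and 6.74-fold) and RABGAP1 (4.56-fold and 3.43-fold).

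Other small GTPase families and their activating proteins were set beside the background of 20.8%. ARF, ARL and SAR GTPases were bound at 8 of 26 genes (30.8%) and RAS family GTPases at 5 of 22 (22.7%). Among activating proteins, ARF GAPs were bound at 5 of 23 (21.7%) and RAS and RAP GAPs at 2 of 20 (10.0%). The Wilson interval of the TBC genes, 32.0 to 65.2%, overlapped those of most of these lists, and the differences were not tested.

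**Figure D5:**
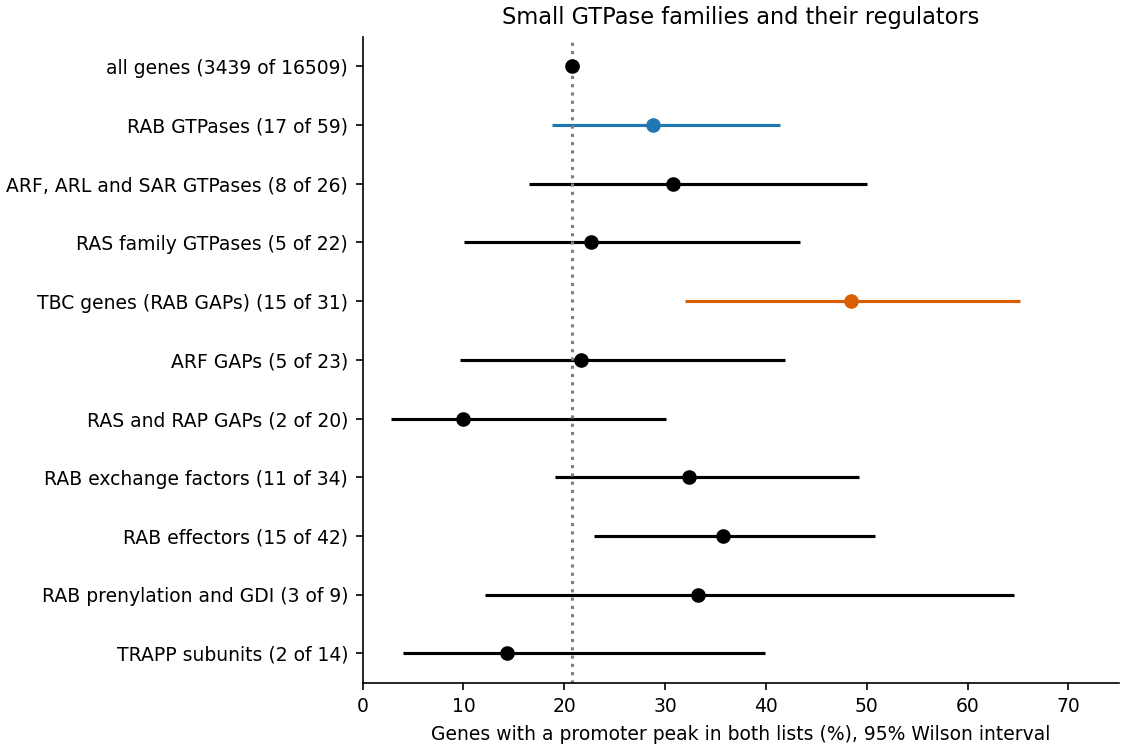
Share of genes bound (x axis, percent) with Wilson 95% intervals for small GTPase families, their activating proteins and other RAB machinery, with bound and total genes in the labels and the share of all genes as a dotted line at 20.8%. TBC genes stand at 48.4%, and the intervals of the lists are wide. The 9 RAB-named partners, bound at 55.6%, are not plotted.

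Replicate 1 held 10273 peaks and replicate 2 7301, with 64 and 50 assigned to members. The median fold was 4.978 and 4.9997, and the median summit fragments 16 and 14. Peaks do not measure expression, so the cell type could be examined only through peaks at marker genes. A promoter peak in both lists was found at 1 of 12 germ cell markers (ETV5), 0 of 7 Sertoli cell markers, 0 of 9 Leydig and peritubular markers and 1 of 8 immune and endothelial markers (KDR). The Wilson intervals were 1.49 to 35.4% for germ cell markers and 0 to 35.4% for Sertoli cell markers. They were 0 to 29.9% for Leydig and peritubular markers and 2.24 to 47.1% for immune and endothelial markers. Each interval includes the 20.8% bound among all genes, and the lists are short. The marker counts therefore do not show which cells were present.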

How the data were processed

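ZBTB16 CUT&Tag was measured in 2 libraries of 1 group, and the authors deposited 1 peak list per library, not pooled. Per the file headers, each peak has a fold enrichment (a linear ratio), a −log10 p-value, a −log10 q-value, a score, a summit, and the gene, class and distance to the start that the authors assigned. The submitters' processing notes name the build Sscrofa11.1. Not given in the sources used here are sequencing depth, aligner, and peak caller with its control. The deposited score was not used. Chromosome 19 in the lists is X. The promoter class held peaks at −2995 to 0 bp (replicate 1) and −2910 to 0 bp (replicate 2) from a start.

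Summit fragments were recovered from fold = (fragments + 1)/(background + 1) and the Poisson tail, within a relative tolerance of 1e-05. All member peaks and 99.9% of both lists were recovered, with 8 and 7 peaks not recovered. This step and the split test were run on simulated data, where the split test was not required to call every changed pair. The lowest background, 1.21 and 0.979 fragments, has a ratio of 1.23. Genes were the protein-coding genes with a symbol in the RefSeq table for Sscrofa11.1. One gene of the TBC1D series and some gene lists are not reported here.

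The members and lists were chosen with earlier results of these data known. The TBC and GTPase pairs were written after values were seen. Every member is named once with its status. Full values are given for bound TBC genes and partners and at least the 10 bound GTPases with the highest lower-of-2 percentile of fold, and at most 3 genes from other lists. The alternatives were 1 library alone, a fold limit, equal list lengths, promoter width, peak class, overlap, gene assignment and denominator. Promoter sequences and protein identities were not used here. Tests used scipy 1.17.1 and numpy 2.4.6, tables pandas 2.3.3 and figures matplotlib 3.10.9, under Python 3.11.15.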

Additional observations from a re-analysis of the deposited data

How the results depend on the processing

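The share of TBC genes bound was above that of GTPases under each of the 11 alternatives, by 1.1 to 22.8 percentage points. All alternatives recount the same lists in which TBC genes were selected on their high share. The shared direction is therefore a description and gives no independent support. Leaving out 1 library gave 30.5 to 42.4% for GTPases, 51.6 to 58.1% for TBC genes, 55.6 to 66.7% for partners and 24.9 to 32.8% for all genes. Without replicate 2, GTPases stood at 42.4% and all genes at 32.8%, and without replicate 1 all genes at 24.9%. Peaks within 1 kb of either gene end gave 44.1% of GTPases and 29.0% of all genes. Counting only genes with any assigned peak, which shortens the denominator, gave 48.6% of GTPases, 71.4% of TBC genes and 41.1% of all genes. For all genes, the share was 11.6% with peaks at or above the median fold, 19.2% with replicate 1 reduced to the length of replicate 2, 28.2% with any assigned peak, 17.6% with overlap by 50% of both, and 24.0% with promoter or 5′ UTR peaks, a setting chosen after seeing the data. The split test gave 0 member pairs past an adjusted p of 0.05 also with the ratio of the lowest backgrounds and with at least 30 fragments per pair. No paired analysis was possible because there is 1 group. With 11 to 80 fragments at bound promoters in replicate 1, a missing peak in 1 list does not show a missing signal.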
